A study of Mus musculus with 6 samples.

Results

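The 40 genes described here mark endothelial cells, which line blood and lymph vessels, or subtypes of vessel. They were taken as a named list out of the 56196 genes counted in mouse osteosarcomas, and all 40 had a row in the table. They fall into 8 roles: 10 genes of endothelial junctions and the cell surface, 7 of signalling and secretion, 3 transcription factors, 4 of capillaries, fenestrae and fluid transport, 3 arterial, 3 of tip cells and apelin signalling, 6 of veins and leukocyte adhesion, and 4 lymphatic or sinusoidal genes.

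Polyadenylated RNA was sequenced from 3 triple knockout tumours (TKO; Osx1-Cre;Rb1lox/lox;p53lox/lox;SKP2-/-) and 3 double knockout tumours (DKO; Osx1-Cre;Rb1lox/lox;p53lox/lox). In both groups Cre under control of Osx1, a gene of osteoblast precursors, cuts floxed Rb1 and p53, and the series asks how tumours that also lack SKP2, a subunit of a ubiquitin ligase, differ from tumours in which it is intact. The SKP2 allele is written without lox sites, so vessels of a TKO host would carry it too. Replicate 1 of each group is male and replicates 2 and 3 are female, while ages, and whether each tumour came from its own mouse, are not given in the sources used here. P-values therefore measure the spread between these samples.

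Endothelial cells are held together by adherens and tight junctions, and their identity rests on transcription factors of the ETS, SOX and bHLH families. Vascular endothelial growth factors and angiopoietins made by other cells act on their receptors, and Notch signals help set tip cell and arterial fates. In bone, capillaries rich in endomucin run beside osteoblast precursors, and the marrow is drained by fenestrated sinusoids.

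The libraries held 17063231 to 22488819 gene counts. Skp2 reads numbered 0 in each TKO library, against 20 in DKO1, 64 in DKO2 and 46 in DKO3. TKO1 stood apart: over tested genes, the correlation of log2 expression was 0.818 between TKO1 and TKO2, 0.792 between TKO1 and TKO3 and 0.905 between TKO2 and TKO3, against 0.92 to 0.945 within DKO. The labelled tumour type was checked with 10 osteoblast genes, whose summed expression was 4287 CPM (counts scaled to the TMM-adjusted library total) in TKO1, 54827 in TKO2 and 81464 in TKO3, against 15938 to 24502 in DKO. Of these genes 9 were tested and 0 were called by edgeR (3 higher and 0 lower at an unadjusted p under 0.05). The osteoblast factor Sp7 had 0 counts in TKO1 and in DKO2, and the bone matrix gene Ibsp had 0 counts in TKO1, DKO2 and DKO3. Spp1 alone gave 2901 of the 4287 CPM in TKO1. The collagen gene Col1a1 stood at 208 CPM in TKO1, against 9912 to 30124 CPM in the other tumours. By Col1a1 the label was thus not borne out in TKO1, for a reason that was not tested. Blood and immune RNA was nearly absent from DKO: the pan-leukocyte gene Ptprc reached 501 counts in TKO1, 1971 in TKO2 and 1732 in TKO3, against 0, 3 and 0 in the DKO libraries, and the haemoglobin gene Hbb-bs reached 14837, 810 and 4543 in the TKO libraries by number, against 0 in each DKO library. The counts do not use strand, and exons of 12 members overlap those of another gene (among them Egfl7, Nos3, Eng, Ramp2, Prox1, Nr2f2 and Cd34), whose reads cannot be told apart where they overlap.

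Most tested members were higher in TKO tumours. Of the 5 tested venous and leukocyte adhesion genes 0 were called, near the share of all tested genes. Of the 40 members 38 passed the filter on low counts; 22 rose in TKO (log2 fold changes of 4.57 to 12.18) and 0 fell by edgeR's quasi-likelihood test at an adjusted p of 0.05, against 4.89% of all 15361 tested genes higher and 2.47% lower (7.36% in either direction). At an unadjusted p under 0.05 (edgeR), 25 members were higher and 1, Apln, was lower, beside 3843 of the 15361 tested genes in either direction. DESeq2 called 25 members higher and Apln lower at an adjusted p under 0.05, against 11.6% and 7.22% of all genes. In 26 tested members all 3 TKO values lay above all 3 DKO values, and in 1 they lay below, against 17.3% and 15.6% of all tested genes. The median log2 fold change of the tested members was 5.36, or 5.23 with the 8 genes at 0 in DKO set to their bound, and that of all tested genes was 0.09. Many members passed the filter only through TKO, so that a difference was built into those counts: 24 of the 40 lay under 1 CPM in every DKO library, of which 22 were tested and 19 rose, while 3 of the other 16 rose. The share under that level throughout DKO was 9.76% over all tested genes. All 5 tested venous and leukocyte adhesion genes were among the other 16, as were Eng, Ramp2, Ece1, Cd34, Aqp1 and Ptprb. Vessel subtype and level in DKO therefore cannot be told apart for the venous genes. The same holds for the arterial genes, all 3 of which lay under 1 CPM in every DKO library. When only genes reaching 1 CPM in at least 1 library of each group were kept, 16 members were tested and 2 rose, Plvap and Fli1, against 0.559% of all genes so tested, and the median was 0.36.

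The calls depended on which libraries entered. Without TKO1 24 members rose (9.61% of all tested genes), without TKO2 14 (1.74%) and without TKO3 9 (1.49%). Without DKO1, DKO2 or DKO3 edgeR called 0 members in each case (0.164%, 0.0123% and 0% of all genes higher), and limma-voom also called 0. DESeq2 called 27, 27 and 25 higher (10.8%, 9.91% and 9.77% of all genes). At an unadjusted p under 0.05, 26, 25 and 25 members were higher in these edgeR fits. Of all tested genes 3618 of 16486, 2971 of 16323 and 3017 of 16553 passed that level in either direction. In these bulk samples fewer endothelial cells, less RNA per cell and a different tissue content cannot be told apart. The leukocyte gene Ptprc and the haemoglobin gene Hbb-bs were also at or near 0 counts in DKO.

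**Figure D1:**
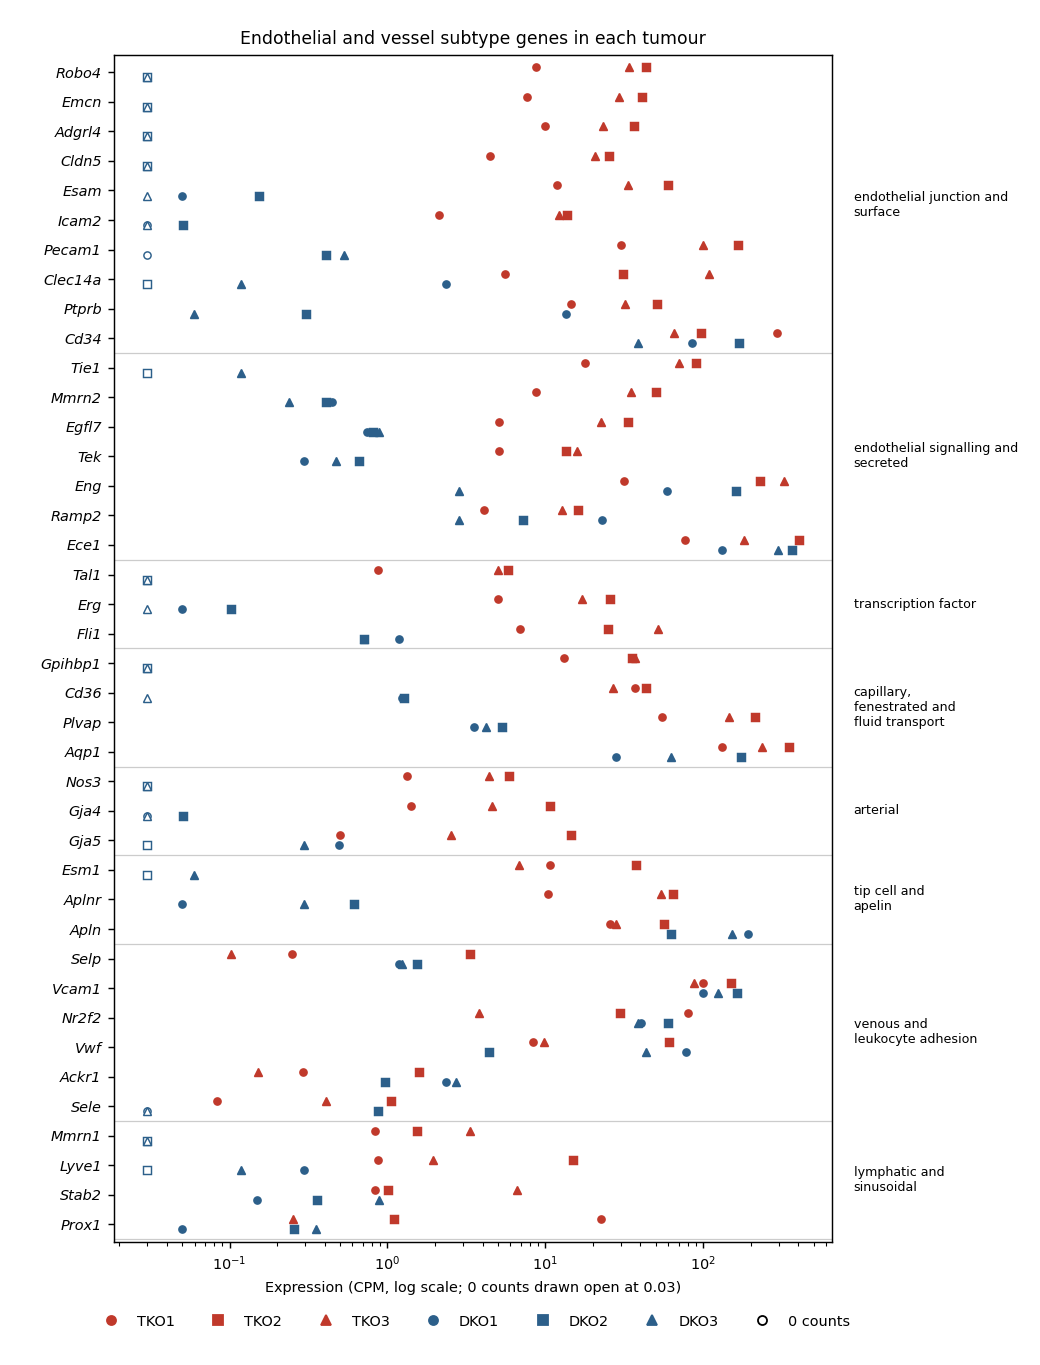
Expression of the 40 members in each tumour (x axis, CPM on a log scale), grouped by role; red symbols are TKO tumours, blue symbols DKO tumours, and open symbols 0 counts. Robo4, Emcn, Adgrl4 and Cldn5 had 0 counts in all 3 DKO libraries, whereas the venous and leukocyte adhesion genes overlapped between the groups. Of all tested genes 17.3% had TKO above DKO and 15.6% below.

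Promoters of 5 members are shown so that the start regions of genes that rose (Robo4, Tie1, Emcn, Cldn5) can be set beside that of Apln, whose TKO values lay below DKO. Each runs from 250 bases before to 50 after a RefSeq start site (GRCm38.p6), 5′ to 3′ on the gene's strand, and capitals mark AGGAAG or CGGAAG on either strand (CTTCCT or CTTCCG on the printed one), 6-base forms of the ETS core that ERG and FLI1 can bind. The windows lie on the plus strand at chr9:37401722-37402021 (Robo4), chr3:137340828-137341127 (Emcn) and chr16:18776597-18776896 (Cldn5), and on the minus strand at chr4:118489800-118490099 (Tie1) and chrX:48034804-48035103 (Apln).
Robo4: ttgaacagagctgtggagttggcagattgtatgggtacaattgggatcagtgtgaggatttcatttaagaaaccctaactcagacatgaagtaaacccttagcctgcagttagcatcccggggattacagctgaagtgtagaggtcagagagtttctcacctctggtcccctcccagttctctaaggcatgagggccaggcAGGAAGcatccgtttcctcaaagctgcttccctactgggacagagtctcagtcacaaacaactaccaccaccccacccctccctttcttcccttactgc
Tie1: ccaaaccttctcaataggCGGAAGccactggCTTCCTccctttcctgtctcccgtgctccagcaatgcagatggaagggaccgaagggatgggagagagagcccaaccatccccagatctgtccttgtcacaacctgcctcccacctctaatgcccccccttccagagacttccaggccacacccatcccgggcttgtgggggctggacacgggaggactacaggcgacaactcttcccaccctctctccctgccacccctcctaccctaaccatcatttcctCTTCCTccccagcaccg
Emcn: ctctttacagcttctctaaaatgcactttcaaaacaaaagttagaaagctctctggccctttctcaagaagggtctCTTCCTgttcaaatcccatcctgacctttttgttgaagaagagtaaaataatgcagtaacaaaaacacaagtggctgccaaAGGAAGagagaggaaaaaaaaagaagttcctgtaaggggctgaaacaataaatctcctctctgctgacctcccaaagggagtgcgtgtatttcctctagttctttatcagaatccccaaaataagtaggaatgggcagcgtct
Cldn5: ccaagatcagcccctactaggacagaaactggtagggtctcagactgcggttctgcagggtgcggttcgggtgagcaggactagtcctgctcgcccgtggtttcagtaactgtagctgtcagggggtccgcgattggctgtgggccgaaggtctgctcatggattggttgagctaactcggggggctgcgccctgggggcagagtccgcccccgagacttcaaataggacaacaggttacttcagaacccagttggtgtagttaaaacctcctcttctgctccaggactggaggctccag
Apln: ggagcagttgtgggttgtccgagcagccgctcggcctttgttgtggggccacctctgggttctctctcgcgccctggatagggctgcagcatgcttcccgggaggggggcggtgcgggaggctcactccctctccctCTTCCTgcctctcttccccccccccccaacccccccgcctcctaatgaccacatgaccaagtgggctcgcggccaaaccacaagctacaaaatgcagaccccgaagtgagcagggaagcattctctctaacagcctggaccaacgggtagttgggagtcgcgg
The window of Tie1 held 3 matches, that of Emcn 2, those of Robo4 and Apln 1 each and that of Cldn5 0. The match in the Robo4 window began at -49 from the start site. RefSeq windows were matched for 26 members, 35 windows in all. Of the 18 windows of members that rose, 7 (38.9%) held either motif, as did 11 of the 17 windows (64.7%) of the other members and 46.5% of all 32841 windows of the same length without undetermined bases.

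Of the junction and surface genes 7 of 10 rose and 0 fell (median log2 fold change 8.74), and all 7 lay under 1 CPM in every DKO library. Robo4, an endothelial roundabout receptor (ENSMUSG00000032125.20, chromosome 9, 37401897 to 37415115, GRCm38), had 8.72, 43.4 and 33.8 CPM in TKO1, TKO2 and TKO3, against 0 counts in each DKO library. All TKO values were thus above DKO, and Robo4 was at least 521-fold higher against a floor of 3 counts over the DKO group (adjusted p = 0.0184, edgeR). Emcn, the sialomucin endomucin, had 7.6, 40.9 and 29.5 CPM in TKO1, TKO2 and TKO3, against 0 counts in each DKO library, at least 473-fold higher (adjusted p = 0.0195, edgeR). The adhesion receptor Adgrl4 (9.88, 36.5 and 23.2 CPM in TKO1, TKO2 and TKO3) and the tight junction claudin Cldn5 (4.49, 25.3 and 20.5 CPM in the same tumours) also had 0 counts in DKO, so that Adgrl4 was at least 425-fold and Cldn5 at least 304-fold higher in TKO (adjusted p = 0.0156 and 0.0231, edgeR). In all 4 genes TKO1 was the lowest of the TKO tumours and TKO2 the highest. With replicate number added to the model these 4 calls were lost, as were those of Egfl7, Fli1, Tal1, Mmrn1, Gpihbp1, Cd36 and Nos3.

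Pecam1, which joins endothelial cells to each other and is also carried by platelets and leukocytes (ENSMUSG00000020717.19, chromosome 11, 106654217 to 106750628), had 30, 166 and 99.9 CPM in TKO1, TKO2 and TKO3, against 0, 0.407 and 0.532 CPM in DKO1, DKO2 and DKO3. The groups did not overlap (log2 fold change 8.30, SE 1.20, adjusted p = 0.0182, edgeR). The tight junction gene Esam had 11.8, 59.7 and 33.2 CPM in TKO1, TKO2 and TKO3, against 4 counts in all of DKO (log2 fold change 8.85, SE 1.08, adjusted p = 0.0133, edgeR). Icam2, a ligand of leukocyte integrins, had 2.12, 13.8 and 12.2 CPM in the TKO tumours and 1 count in DKO, a ratio of 508 (95% counting interval 90.7 to 20080.5; adjusted p = 0.0195, edgeR). Like Robo4, these genes were lowest in TKO1.

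The other 3 surface genes were expressed in at least 1 DKO tumour. Ptprb, the phosphatase VE-PTP that restrains TEK, had 14.5, 50.7 and 32.1 CPM in TKO1, TKO2 and TKO3, against 13.4, 0.305 and 0.0592 CPM in DKO1, DKO2 and DKO3 (adjusted p = 0.325, edgeR). The C-type lectin Clec14a had 5.57, 31.2 and 108 CPM in TKO1, TKO2 and TKO3, against 2.33, 0 and 0.118 CPM in DKO1, DKO2 and DKO3 (adjusted p = 0.101, edgeR; 0.000648 by DESeq2 and 0.04 by edgeR without TKO1). In both genes DKO1 carried nearly all of the DKO signal, although Pecam1 had 0 counts in that library. Cd34, a sialomucin that haematopoietic progenitors and stromal cells also carry, had 294, 97.5 and 65.2 CPM in TKO1, TKO2 and TKO3, against 85, 167 and 38.5 CPM in DKO1, DKO2 and DKO3. Its groups overlapped (adjusted p = 0.611, edgeR), with the highest value in TKO1, the TKO tumour in which Pecam1 was lowest.

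Among the signalling and secreted genes 4 of 7 rose and 0 fell (median log2 fold change 4.57). The 4 that rose lay under 1 CPM in every DKO library. Tie1, an orphan partner of the angiopoietin receptor (ENSMUSG00000033191.14, chromosome 4, 118471191 to 118490061), had 17.9, 90.1 and 70.5 CPM in TKO1, TKO2 and TKO3, against 2 counts in all of DKO, and had the smallest adjusted p of the members (0.0124, edgeR). The angiopoietin receptor Tek itself had 5.11, 13.6 and 15.9 CPM in TKO1, TKO2 and TKO3, against 0.298, 0.662 and 0.473 CPM in DKO1, DKO2 and DKO3 (log2 fold change 4.57, SE 0.70, adjusted p = 0.0193, edgeR). Mmrn2, a matrix ligand of CLEC14A, averaged 31.4 ± 21.1 CPM in TKO and 0.363 ± 0.112 CPM in DKO (SD, n = 3 each; adjusted p = 0.0144, edgeR). Egfl7, a secreted factor whose locus holds miR-126, averaged 20.4 ± 14.3 CPM in TKO and 0.815 ± 0.0715 CPM in DKO (SD, n = 3 each; adjusted p = 0.0243, edgeR; lost by limma-voom). All 4 had groups that did not overlap.

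Eng, Ramp2 and Ece1 did not follow. Eng, the co-receptor endoglin, which mesenchymal stromal cells also carry, had 31.4, 229 and 324 CPM in TKO1, TKO2 and TKO3, against 58.7, 162 and 2.84 CPM in DKO1, DKO2 and DKO3 (log2 fold change 1.39, SE 1.29, adjusted p = 0.541, edgeR). The adrenomedullin receptor partner Ramp2 had 4.07, 16.1 and 12.8 CPM in TKO1, TKO2 and TKO3, against 22.8, 7.18 and 2.84 CPM in DKO1, DKO2 and DKO3 (adjusted p = 0.997, edgeR). Ece1, the endothelin converting enzyme, had 77.2, 406 and 182 CPM in TKO1, TKO2 and TKO3, against 132, 365 and 297 CPM in DKO1, DKO2 and DKO3 (adjusted p = 0.837, edgeR). The groups overlapped in all 3 genes, and the highest DKO library differed: DKO2 for Eng and Ece1, DKO1 for Ramp2. The signs of Ramp2 and Ece1 changed when single libraries were left out.

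All 3 transcription factors rose, and 2 of them lay under 1 CPM in every DKO library. Erg, an ETS factor that maintains endothelial identity (ENSMUSG00000040732.20, chromosome 16, 95359169 to 95586593), had 4.98, 25.6 and 17 CPM in TKO1, TKO2 and TKO3, against 3 counts in all of DKO, a ratio of 289 (95% counting interval 98.5 to 1402; adjusted p = 0.0156, edgeR). Its relative Fli1, which blood cells also express, had 6.89, 25 and 51.6 CPM in TKO1, TKO2 and TKO3, against 1.19, 0.713 and 0.71 CPM in DKO1, DKO2 and DKO3 (log2 fold change 4.98, SE 0.83, adjusted p = 0.0241, edgeR; lost by limma-voom). Tal1, a bHLH factor of blood and endothelium, had 0.872, 5.81 and 5.03 CPM in TKO1, TKO2 and TKO3, against 0 counts in DKO, at least 70.5-fold higher (adjusted p = 0.0358, edgeR). Groups did not overlap in any of the 3, and TKO1 was lowest in each.

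Capillary genes rose in 3 of 4. Plvap, which forms the diaphragms of fenestrae (chromosome 8, 71497765 to 71511752), had 54.7, 213 and 145 CPM in TKO1, TKO2 and TKO3, against 3.52, 5.29 and 4.2 CPM in DKO1, DKO2 and DKO3 (log2 fold change 4.99, SE 0.58, adjusted p = 0.0125, edgeR). Of the members that rose, it had the highest mean CPM in DKO. Gpihbp1, which anchors lipoprotein lipase on capillaries, had 13.2, 35.3 and 37 CPM in TKO1, TKO2 and TKO3, against 0 counts in DKO, at least 521-fold higher (adjusted p = 0.0133, edgeR). Cd36, a fatty acid transporter of capillaries, adipocytes and macrophages, had 36.7, 43.1 and 27 CPM in TKO1, TKO2 and TKO3, against 1.24, 1.27 and 0 CPM in DKO1, DKO2 and DKO3 (log2 fold change 5.39, SE 1.13, adjusted p = 0.0378, edgeR). Cd36 did not share the low TKO1 value of the identity genes. Its call was lost with no filter on low counts and when 1 CPM was required in a library of each group. It was also lost with replicate number in the model and without TKO2, TKO3 or any single DKO sample. The water channel Aqp1 averaged 239 ± 109 CPM in TKO and 87.6 ± 75.4 CPM in DKO (SD, n = 3 each), and its groups overlapped (adjusted p = 0.249, edgeR).

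**Figure D2:**
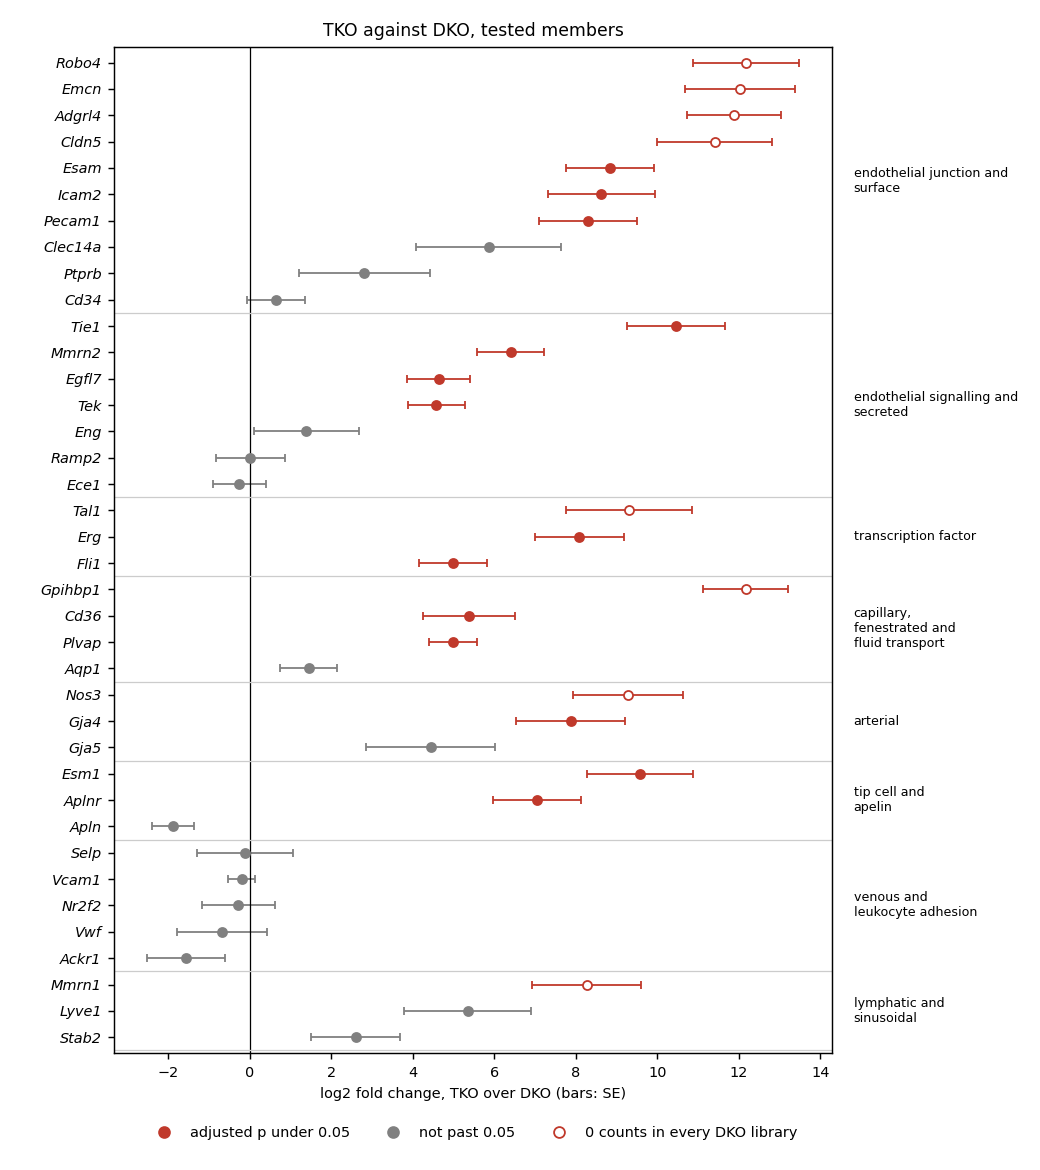
Log2 fold change of TKO over DKO with its SE (x axis) for the 38 tested members, by role; red marks an adjusted p under 0.05, grey the rest, and open symbols genes with 0 counts in every DKO library, whose fitted fold is no bound. All 3 transcription factors, 2 of them under 1 CPM in every DKO library, were called. Of 5 tested venous genes 0 were, beside 7.36% of all tested genes.

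The arterial genes were all higher in value in TKO and 2 of 3 rose. All 3 lay under 1 CPM in every DKO library, so a difference was built into this count. Nos3, the endothelial nitric oxide synthase, had 1.33, 5.86 and 4.42 CPM in TKO1, TKO2 and TKO3, against 0 counts in DKO, at least 70.5-fold higher (adjusted p = 0.0293, edgeR). The gap junction connexin Gja4 had 1.41, 10.7 and 4.62 CPM in TKO1, TKO2 and TKO3, against 1 count in DKO, a ratio of 305 (95% counting interval 54.3 to 12069; adjusted p = 0.0248, edgeR). The second connexin, Gja5, had 0.498, 14.6 and 2.54 CPM in TKO1, TKO2 and TKO3, against 0.496, 0 and 0.296 CPM in DKO1, DKO2 and DKO3 (adjusted p = 0.143, edgeR; 0.00846 by DESeq2). For Gja5 TKO1 lay level with DKO1 and TKO2 held most of the signal.

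In the tip cell and apelin group 2 of 3 rose and 0 fell, and the apelin receptor and its ligand differed in direction. The 2 that rose lay under 1 CPM in every DKO library. Aplnr, the apelin receptor of venous and sprouting endothelium, had 10.3, 64.7 and 53.8 CPM in TKO1, TKO2 and TKO3, against 0.0496, 0.611 and 0.296 CPM in DKO1, DKO2 and DKO3 (log2 fold change 7.05, SE 1.09, adjusted p = 0.0205, edgeR). Its ligand gene Apln (ENSMUSG00000037010.7, chromosome X, 48025146 to 48034853), made by tip cells and other hypoxic cells, had 25.8, 56.8 and 28 CPM in TKO1, TKO2 and TKO3, against 193, 62.3 and 152 CPM in DKO1, DKO2 and DKO3. Apln was the single tested member whose TKO values all lay below DKO, by 1.88 on the log2 scale (SE 0.52, log2 fold change -1.88), and it missed the threshold (adjusted p = 0.0776, edgeR), but passed it by DESeq2 (0.0096) and with no filter on low counts (0.027). Over the 22 settings run, including those added after seeing the data, its adjusted p ran from 0.00094 to 0.247 and its log2 fold change was negative in each. Esm1, a secreted proteoglycan of tip cells, had 10.8, 37.4 and 6.81 CPM in TKO1, TKO2 and TKO3, against 1 count in DKO, a ratio of 1029 (95% counting interval 184 to 40682; adjusted p = 0.0156, edgeR).

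Of the 6 venous and leukocyte adhesion genes 5 could be tested, and 0 rose and 0 fell, also by DESeq2. For 5 genes, 0 calls lie near the share of all tested genes called by edgeR (7.36%). At an unadjusted p of 0.05 (edgeR) 0 passed. Their median log2 fold change was -0.28, and in all 5 the groups overlapped. Of all tested genes 17.3% had TKO above DKO and 15.6% below. These counts alone do not set the subtype apart from all tested genes. Aplnr, which venous endothelium also expresses, was listed with the tip cell genes and rose. Vwf, the clotting factor stored in Weibel-Palade bodies, averaged 26.2 ± 29.7 CPM in TKO and 42 ± 36.8 CPM in DKO (SD, n = 3 each, adjusted p = 0.744, edgeR). Its highest value was in DKO1 (78 CPM), where Pecam1 had 0 counts. Selp, P-selectin from the same granules and from platelets, had 0.249, 3.32 and 0.102 CPM in TKO1, TKO2 and TKO3, against 1.19, 1.53 and 1.24 CPM in DKO1, DKO2 and DKO3 (adjusted p = 0.963, edgeR). For both, TKO2 was the highest TKO tumour, as it was for Pecam1.

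Nr2f2, the venous transcription factor COUP-TFII, which mesenchymal cells also express, had 80.6, 29.7 and 3.81 CPM in TKO1, TKO2 and TKO3, against 40.2, 59.7 and 38.8 CPM in DKO1, DKO2 and DKO3 (adjusted p = 0.875, edgeR). TKO1 was its highest TKO tumour and TKO3 its lowest. Vcam1, an adhesion molecule of activated endothelium and marrow stroma, had 99, 150 and 87.5 CPM in TKO1, TKO2 and TKO3, against 99.9, 163 and 125 CPM in DKO1, DKO2 and DKO3 (log2 fold change -0.20, SE 0.32, adjusted p = 0.741, edgeR). Ackr1, an atypical chemokine receptor of venules and red cells, had 0.291, 1.59 and 0.152 CPM in TKO1, TKO2 and TKO3, against 2.33, 0.967 and 2.72 CPM in DKO1, DKO2 and DKO3 (log2 fold change -1.56, SE 0.96, adjusted p = 0.359, edgeR). Sele, E-selectin, gave 2 counts in TKO1, 22 in TKO2 and 8 in TKO3, against 17 in DKO2 and 0 in the other DKO libraries, too few to test. The differences that were not called are not shown to be absent: the SE of Selp was 1.18 on the log2 scale.

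Of the 4 lymphatic and sinusoidal genes 3 were tested and 1 rose: Mmrn1, a multimerin of lymphatic endothelium and platelets, at 0.831 CPM in TKO1, 1.54 in TKO2 and 3.35 in TKO3, against 0 counts in DKO, at least 34.5-fold higher (adjusted p = 0.0339, edgeR). Lyve1, a hyaluronan receptor of lymphatic vessels and some macrophages, had 0.872, 14.9 and 1.93 CPM in TKO1, TKO2 and TKO3, against 0.298, 0 and 0.118 CPM in DKO1, DKO2 and DKO3 (adjusted p = 0.0895, edgeR; 0.000608 by DESeq2 and 0.0391 by edgeR without TKO1). The scavenger receptor Stab2 of sinusoids had 0.831, 1.01 and 6.6 CPM in TKO1, TKO2 and TKO3, against 0.149, 0.356 and 0.887 CPM in DKO1, DKO2 and DKO3 (adjusted p = 0.202, edgeR). Prox1, the master factor of lymphatic identity (chromosome 1, 190118035 to 190170714), gave 541 counts in TKO1, 23 in TKO2 and 5 in TKO3, against 1 in DKO1, 5 in DKO2 and 6 in DKO3, and failed the count filter. These genes peaked in different TKO tumours, Prox1 in TKO1, Lyve1 in TKO2, and Mmrn1 and Stab2 in TKO3. All 4 lay under 1 CPM in every DKO library.

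Within the TKO group most members were highest in TKO2 and lowest in TKO1. TKO2 was the highest TKO tumour for 29 of the 38 tested members (76.3%) and TKO1 the lowest for 31 (81.6%), against 32.3% and 43.1% of all tested genes. Among the 22 members that rose, the ratio of TKO2 to TKO1 was 1.17 to 7.55 (median 5.03) and that of TKO3 to TKO1 was 0.633 to 7.48 (median 3.64). Cd34 (0.332 for TKO2 over TKO1 and 0.222 for TKO3 over TKO1) and Nr2f2 (0.368 and 0.0473 for the same ratios) were lower in both TKO2 and TKO3 than in TKO1. Selp (0.408), Ackr1 (0.524), Esm1 (0.633), Cd36 (0.735) and Vcam1 (0.884) were lower in TKO3 than in TKO1, by the ratio of TKO3 to TKO1, and higher in TKO2. The ratio of TKO2 to TKO1 was highest for Gja5 (29.2), Lyve1 (17.1) and Selp (13.3). Clec14a, at 19.4, and Eng, at 10.3, leaned furthest to TKO3 in the ratio of TKO3 to TKO1. These ratios describe single tumours and carry no test.

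**Figure D3:**
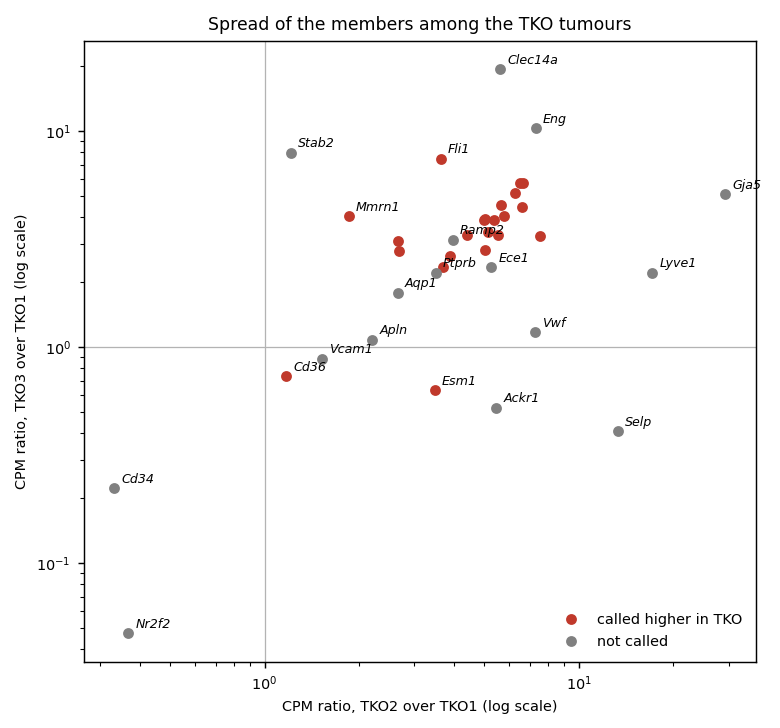
CPM ratio of TKO2 to TKO1 (x axis) and of TKO3 to TKO1 (y axis) for the 38 tested members, both on log scales; red points are members that rose in TKO and grey points the rest. Most red points lie near ratios of 5.03 and 3.64, while Cd34 and Nr2f2 lie below 1 on both axes.

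Compared per kilobase of annotated exon, the mean level in TKO was highest for Aqp1 (90.8 CPM per kilobase), Plvap (69.3), Eng (48.2) and Ece1 (41.8), followed at a distance by Cd34 (20.9), Pecam1 (15.8) and Vcam1 (12.7). In DKO the highest levels per kilobase were those of Ece1 (50), Apln (43.1), Aqp1 (33.3), Eng (18.4), Vcam1 (14.6) and Cd34 (13.3), none of which was called. With a level in TKO of 0.177 to 1.02 CPM per kilobase, Sele, Selp, Stab2, Mmrn1, Ackr1, Tal1, Nos3, Prox1 and Gja5 were the lowest. Such means carry a wide spread between tumours: for Eng in TKO the SD was 149 CPM around a mean of 195 CPM, before division by exon length. The order of the genes was not tested.

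Of 24 further endothelial identity genes all were tested, 15 rose and 0 fell (median log2 fold change 5.92), against 4.89% of all tested genes higher and 2.47% lower. In DKO 13 of the 24 lay under 1 CPM in every library, so a difference was built into this count too. Cdh5, VE-cadherin of adherens junctions, had 30.9, 201 and 123 CPM in TKO1, TKO2 and TKO3, against 0.397, 0.56 and 0.414 CPM in DKO1, DKO2 and DKO3, with groups that did not overlap (log2 fold change 7.997, SE 0.85, adjusted p = 0.0112, edgeR). Cd93, Arhgef15 and Lmo2 were the next 3 by p, with adjusted p-values of 0.0118, 0.0164 and 0.0182 (edgeR). Lmo2, a partner of TAL1, averaged 18.5 ± 12.7 CPM in TKO and had 2 counts in all of DKO (SD, n = 3). The other 9 of the 24 genes were not called. Log2 fold changes were negative for 3 of them, Rapgef3 (-1.75), whose TKO values all lay below DKO, Gata2 (-1.40) and Klf4 (-0.28). The groups overlapped in Gata2, Klf4, S1pr1, Sox7, Ets1 and Shank3, while Tspan7 and Cyyr1 were higher in every TKO tumour.

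In the list of VEGF, angiopoietin and Notch pathway genes 23 of 25 were tested, 10 rose and 2 fell (median log2 fold change 2.45). Of all tested genes 4.89% rose and 2.47% fell. The 2 that fell were ligands: Vegfa, the main growth factor of endothelium, had 53.4, 202 and 126 CPM in TKO1, TKO2 and TKO3, against 581, 521 and 813 CPM in DKO1, DKO2 and DKO3 (log2 fold change -2.33, SE 0.52, adjusted p = 0.0456, edgeR). Vegfd, a ligand of lymphatic growth, had 6.31, 9.42 and 2.79 CPM in TKO1, TKO2 and TKO3, against 43.5, 41.2 and 55.2 CPM in DKO1, DKO2 and DKO3 (log2 fold change -2.91, SE 0.49, adjusted p = 0.0243, edgeR). The DKO tumours, in which Pecam1 was at or under 0.532 CPM, thus held the higher Vegfa and Apln levels, and in neither gene did the groups overlap. Among receptors, Kdr, the main VEGF receptor, averaged 55.3 ± 37 CPM in TKO and 4.09 ± 1.92 CPM in DKO (SD, n = 3 each, adjusted p = 0.0378, edgeR). Flt4 rose too (adjusted p = 0.0333, edgeR). Of the tested genes in this list 11 were not called. The groups overlapped in Flt1, Nrp2, Vegfc, Angpt1, Jag1 and Acvrl1. Nrp1, Dll4, Notch1 and Rasip1 were higher in every TKO tumour, and Vegfb was lower in each. The ligands Pgf and Angpt2 rose with adjusted p-values of 0.0221 and 0.0185 (edgeR), and so did the Notch ligand Jag2 (0.0236). Heyl, a Notch target, stood at 15 CPM in TKO1, 18.6 in TKO2 and 15.9 in TKO3, against 0 counts in DKO (at least 311-fold higher, adjusted p = 0.0112, edgeR). Over both lists 25 genes rose and 2 fell. Without TKO1 31 rose and 3 fell, and without TKO2 or TKO3 9 rose and 1 fell in each case. Without DKO1, DKO2 and DKO3 edgeR called 1, 0 and 0 higher, and DESeq2 called 31, 30 and 30 higher. At an unadjusted p under 0.05, 30, 30 and 31 were higher in the same edgeR fits. Of all tested genes 3618, 2971 and 3017 passed that level in either direction.

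**Figure D4:**
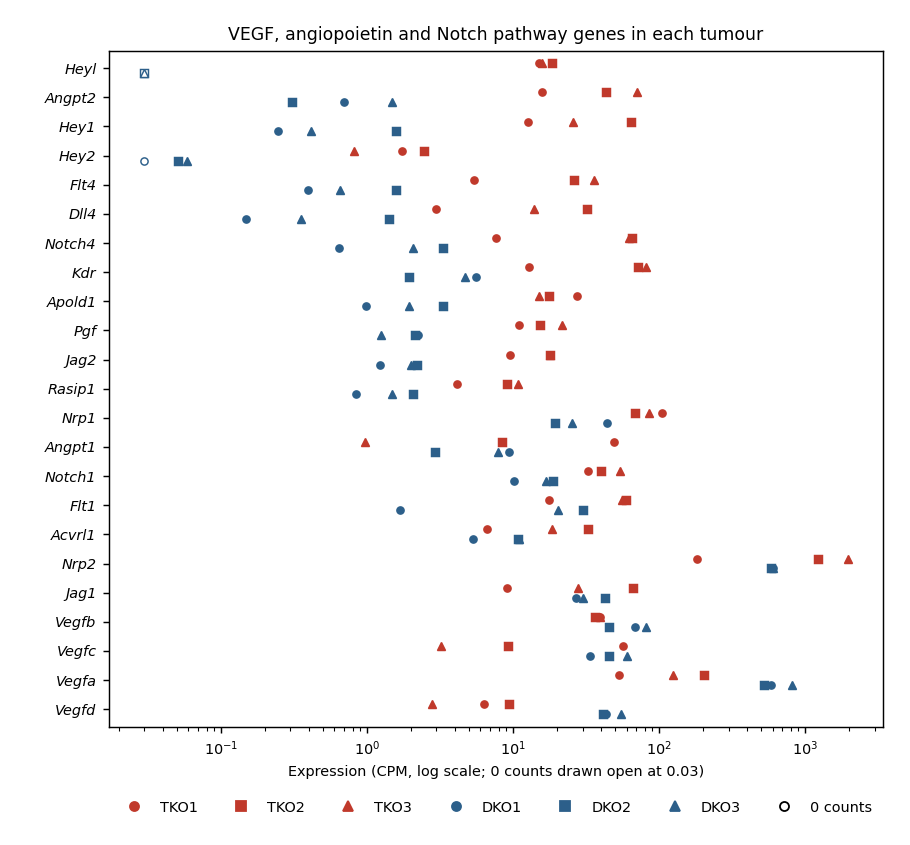
Expression of the 23 tested VEGF, angiopoietin and Notch pathway genes in each tumour (x axis, CPM on a log scale), ordered by log2 fold change of TKO over DKO; red symbols are TKO tumours, blue symbols DKO tumours, and open symbols 0 counts. Vegfa, Vegfb and Vegfd lie lower in all TKO tumours than in any DKO tumour, while Heyl had 0 counts in DKO.

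Many markers of other cell types were also higher in TKO tumours, against 4.89% of all tested genes. Under 1 CPM in every DKO library lay 8 of 14 macrophage, 6 of 13 pericyte and smooth muscle, all 8 erythroid and 6 of 11 skeletal muscle genes. A difference was thus built into these counts as well. Of 14 macrophage genes 11 rose and 0 fell, with a summed level of 1332 to 3341 CPM in TKO and 134 to 185 CPM in DKO. Of 13 pericyte and smooth muscle genes 11 were tested, 6 rose and 0 fell, with sums of 545 to 2071 CPM in TKO and 188 to 499.8 CPM in DKO. Of the 5 not called, Pdgfrb (log2 fold change -0.06), Notch3 (0.13), Cspg4 (1.49) and Cnn1 (-0.24) overlapped between the groups. Des, also in the muscle list, was higher in every TKO tumour but missed the threshold (adjusted p = 0.0881, edgeR). Of 8 erythroid genes 4 were tested and all 4 rose, with sums of 88.7 to 1163 CPM in TKO and 0.695 to 1.48 CPM in DKO. Of 11 skeletal muscle genes 10 rose and 0 fell, with sums of 410 to 11644 CPM in TKO and 4.17 to 17.7 CPM in DKO.

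Platelet genes, which share Vwf, Selp, Mmrn1 and Pecam1 with endothelium, summed to 34.5 to 66.4 CPM in TKO and 13.8 to 26.9 CPM in DKO; of 12 listed 5 were tested and 1, Pf4, rose, while Itga2b and Gp1ba, 2 defining platelet receptor genes, were not called. Of the defining genes at 0 in DKO, Gp9 had 37 and Tubb1 21 counts in all of TKO, Gp1bb had 1 and Treml1 had 0. Of 9 adipocyte genes, a cell type that shares Cd36, 5 were tested and 0 rose or fell by edgeR (2 higher and 0 lower at an unadjusted p under 0.05), with sums of 101.1 to 225 CPM in TKO and 30.6 to 191 CPM in DKO. The macrophage, muscle and platelet sums were highest in TKO2, where the endothelial identity genes were highest, and the erythroid sum was highest in TKO1, where they were lowest. The pericyte sum was also highest in TKO2, but 1150 of its 2071 CPM there came from Des, which the muscle list shares. The part of these cell types in the members' differences was not tested, and genotype and tissue content cannot be told apart in these 6 libraries.

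**Figure D5:**
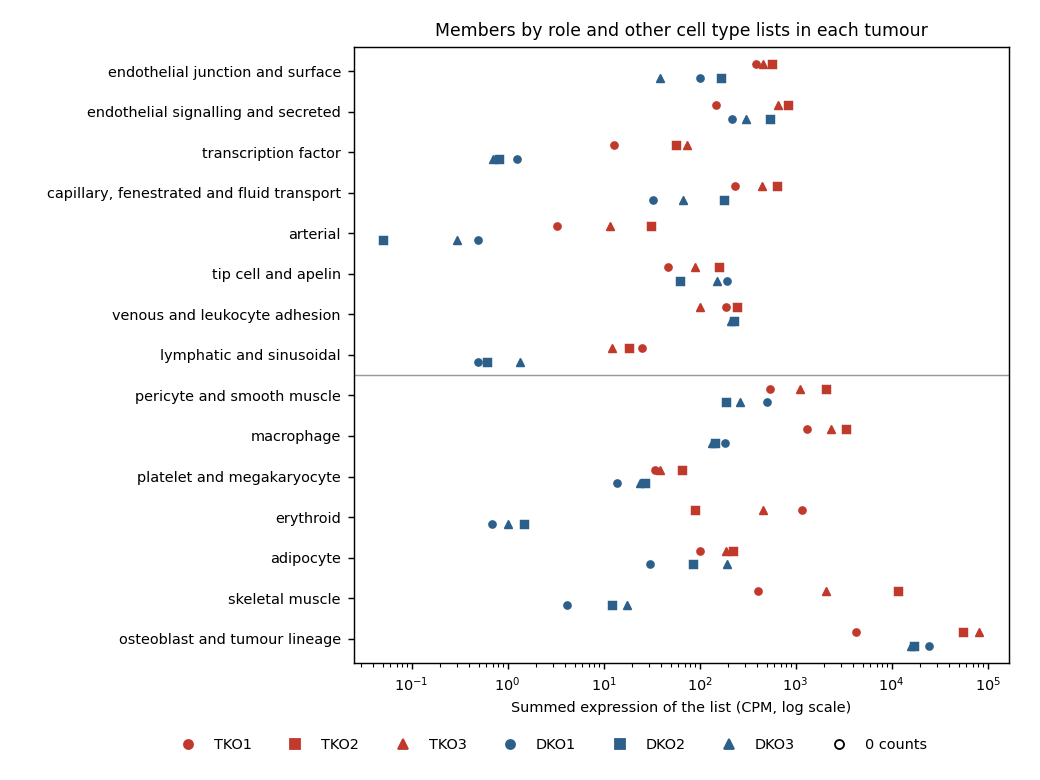
Summed expression (x axis, CPM on a log scale) of the members by role, above the line, and of 7 other cell type lists, below it, in each tumour; red symbols are TKO tumours and blue symbols DKO tumours. The signalling, tip cell and venous sums overlapped between the groups and the other 5 role sums did not; of the other cell types, the adipocyte and osteoblast sums overlapped.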

How the data were processed

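The authors' deposited files hold raw read counts per gene, which per the submitters' processing notes involved STAR 2.6.1 and mm10. The sources used here do not give the annotation or read filters. Unstranded counts were used, since 50.2 to 51.3% of counts fell on the first strand. Of 56196 gene identifiers 55154 were given symbols and coordinates from GENCODE M21 (GRCm38), and 4 lines of unassigned reads were left out (unmapped reads 2.53 to 3.2%, multimapping 3.94 to 4.7%, no feature 5.33 to 9.3%, ambiguous 5.1 to 6.53%).

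Counts were tested on all 6 libraries with edgeR 4.0.16 (R 4.3.3): genes kept by filterByExpr with a minimum count of 10, TMM scaling, robust quasi-likelihood fits without covariates, and Benjamini-Hochberg adjustment over 15361 genes at 0.05. Alternatives were DESeq2 1.42.0, limma-voom (limma 3.58.1), other scalings, filters and count columns, sex, a replicate block and each sample left out; DESeq2 and limma-voom without each DKO sample were added after seeing the data. Intervals (95%) and the floor of 3 counts over a group cover counting error only. The test was tested on simulated data first.

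The members and lists were chosen with earlier results of these data known. Every member is named; of other lists up to 4 genes with the smallest p were named, plus genes called against their list's direction, Skp2, Ptprc and haemoglobin. Kdr, Flt4, Sp7, Ibsp, Spp1, Col1a1 and the platelet genes other than Pf4 were named after their values were seen. So were the genes not called in the further endothelial, pathway and pericyte lists.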

Additional observations from a re-analysis of the deposited data

How the results depend on the processing

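For all genes the main counts were 751 higher and 380 lower; DESeq2 gave 1784 and 1109, leaving out genes near absent in either group (under 1 CPM in all of its libraries) 74 and 84, the replicate block 212 and 83, and leaving out single samples 0 to 1575 and 0 to 810. Members called higher numbered 22, against 2 with near-absent genes left out, 11 with the replicate block and 0 to 24 with single samples left out; without DKO1, DKO2 and DKO3 DESeq2 called 27, 27 and 25 and limma-voom 0 each. Members called lower numbered 0, against 1 by DESeq2, 1 with no filter on low counts and 1 by DESeq2 without DKO2. Over the pathway and other endothelial lists 25 were higher and 2 lower; near-absent genes left out gave 5 and 1, the block 10 and 0, and single samples left out 0 to 31 and 0 to 3. The median log2 fold change of tested members was 0.36 with near-absent genes left out (16 members), and 5.10 to 6.14 with single samples left out, the highest without DKO1. Same-numbered TKO and DKO samples did not deviate together (correlations of -0.00431, 0.0124 and -0.0235). With 3 samples per group this cannot exclude pairing, and samples of the same number share a sex. Signs reversed for Ramp2 (-0.0552 with no filter, -0.37 without TKO2, -0.11 without TKO3, -0.24 without DKO2, -0.44 without DKO3), Cd34 (-0.26 without TKO1), Selp (0.37 without TKO1, 0.44 without TKO3), Ece1 (0.14 without TKO1, 0.02 without DKO2), Nr2f2 (0.26 without TKO3) and Vwf (0.11 without DKO1), in log2 fold change; leaving out single samples these ran up to 1.12 (Ramp2) and 1.28 (Cd34) and down to -2.84 (Selp), -1.02 (Ece1), -1.47 (Nr2f2) and -2.21 (Vwf); the cause was not tested. Genes at or near 0 in DKO have no precise fold at this depth.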
